A study of Caenorhabditis elegans with 6 samples.

Results

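The mir-2 family of Caenorhabditis elegans consists here of 4 microRNA (miRNA) genes, cel-mir-2, cel-mir-43, cel-mir-250 and cel-mir-797 (written below without the species prefix), which were taken by name from a count table of 253 miRNA genes as genes whose mature products are known to share a seed. No sequence was examined here. The libraries were small RNA from gonads dissected from adult N2 animals, with 3 libraries from males and 3 from hermaphrodites. N2 is the wild-type laboratory strain, and both groups carried this genotype with no treatment. In adult hermaphrodites the gonad produces oocytes, having made sperm at an earlier stage, whereas the gonad of males produces only sperm. The labels call the material germline, while a dissected gonad also holds somatic gonad cells. They do not say whether the libraries came from separate animals or cultures, so p-values measure only the spread between these libraries.

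A miRNA guides Argonaute proteins to messenger RNAs mainly through its seed, the short stretch near its 5′ end, and this lowers the stability or translation of the target. Genes that share a seed can therefore act on overlapping targets, and which locus supplies the family in a tissue is set by the levels of the separate genes. In Drosophila, members of the miR-2 family bind K-box motifs in 3′ untranslated regions and repress cell death genes such as reaper, grim and sickle. The series asked which miRNAs the gonads contain and which are enriched in males. For this family the question is which locus supplies it in each sex.

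The 4 genes lie on separate chromosomes in the WBcel235 annotation. On chromosome I, mir-2 sits in an intron of ppfr-1, which encodes a regulatory subunit of protein phosphatase 4, on the same strand and near mir-71. On chromosome II, mir-43 lies between mir-42, a member of the oocyte and embryo mir-35 family, and mir-44. It is antisense to an exon of the non-coding RNA ZK930.12, and without a stated strand setting their reads cannot be told apart. On chromosome V, mir-250 lies beside mir-61, and on chromosome X, mir-797 lies beside mir-247. Neither of these overlaps another annotated gene. The neighbours mir-44, mir-61 and mir-247 are known to share a seed of their own, so 3 of the 4 loci pair a member of the mir-2 family with a member of the mir-44 family.

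The hermaphrodite libraries held 2268159 to 2621478 miRNA counts and the male libraries 245399 to 597166, so depth and sex cannot be told apart. Male replicate 3 was the smallest library, and its counts differed most from those of the other male libraries (chi-square 79989 and 91064 on 117 degrees of freedom, against 2683 on 122 between male replicates 1 and 2). As a check of the labels, the oocyte-linked mir-35 family made up 18.1% to 19.2% of counts in each hermaphrodite library and at most 0.0638% in each male library. Markers of somatic tissue (mir-1 of muscle, mir-60 of intestine, mir-228 of glia and hypodermis, and lsy-6 and mir-124 of neurons) summed to between 6058 and 8268 scaled CPM in hermaphrodite and between 10614 and 16608 in male libraries. Scaled CPM are counts divided by a library size that was scaled by trimmed mean of M values (TMM), put on the usual CPM scale. Most of each sum was mir-228, at a mean of 4720 of 7080 scaled CPM in hermaphrodite and 10990 of 12724 in male libraries. Of these 5 markers 4 were tested, of which 2 were higher (mir-228 and lsy-6) and 1 was lower in male gonads. The lower 1 was mir-1, at a mean of 1894 scaled CPM in hermaphrodite and 847 in male libraries, and mir-60 was not called. Among all tested miRNAs, 30.6% were called as higher and 25.0% as lower in male gonads. The neuronal mir-124 had 6 counts or fewer in every library, and lsy-6 had 20 or fewer. The part of these markers in the results below was not tested.

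One locus held nearly all of the family's counts in both sexes. These counts do not separate hairpin arms, so they may include reads of the arm without the shared seed. In hermaphrodite gonads mir-250 held 96.3% ± 0.436 (SD, n = 3) of the family's counts, and in male gonads 96.4% ± 1.47 (SD, n = 3). The hermaphrodite shares were 95.9%, 96.2% and 96.8% for replicates 1 to 3, and the male shares 97.2%, 97.2% and 94.7%. The male values lay on both sides of the hermaphrodite values, and the exact permutation p was 1.0 (two-sided). The lowest share, in male replicate 3, had a 95% Wilson interval from 93.3% to 95.8%. In the other 5 libraries the interval was at most 0.778 percentage points wide. These intervals cover only the counting of reads, not the spread between libraries. PCR copies are counted as reads, so the intervals may be too narrow even for that. The annotated hairpin genes are 89 to 99 bases long, and dividing the counts by these lengths gave mir-250 shares of 96.2% ± 0.440 (SD, n = 3) and 96.3% ± 1.48 (SD, n = 3).

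The locus in second place differed between the sexes. In each hermaphrodite library mir-43 exceeded mir-2, and in each male library mir-2 exceeded mir-43. The share of mir-43 was 2.20%, 2.35% and 1.70% of the family in hermaphrodite replicates 1 to 3 and 0.322%, 0.306% and 0.835% in male replicates 1 to 3. The share of mir-2 was 1.77%, 1.34% and 1.43% in the hermaphrodite and 2.40%, 2.42% and 4.48% in the male libraries. Neither locus overlapped between the sexes. No background was computed for such shares, but in scaled CPM 67.7% of all tested miRNAs did not overlap between the sexes. In the mean, mir-43 dropped by 1.59 percentage points in males while mir-2 was 1.59 points higher, each with an exact permutation p of 0.1 (two-sided), the smallest that 3 against 3 libraries can give, and 0.133 after Benjamini-Hochberg adjustment over the 4 loci. The size of the mir-2 difference rested on male replicate 3, without which it was 0.898 points. Without that library the difference was -1.77 points for mir-43 and 0.94 points for mir-250. Shares of the same total are not independent, so the equal sizes do not show that mir-2 replaced mir-43. The rarest locus, mir-797, held 0.118% ± 0.0203 (SD, n = 3) of the family's hermaphrodite counts and 0.0325% ± 0.0286 (SD, n = 3) of those from males, with the same exact permutation p of 0.1.

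**Figure D1:**
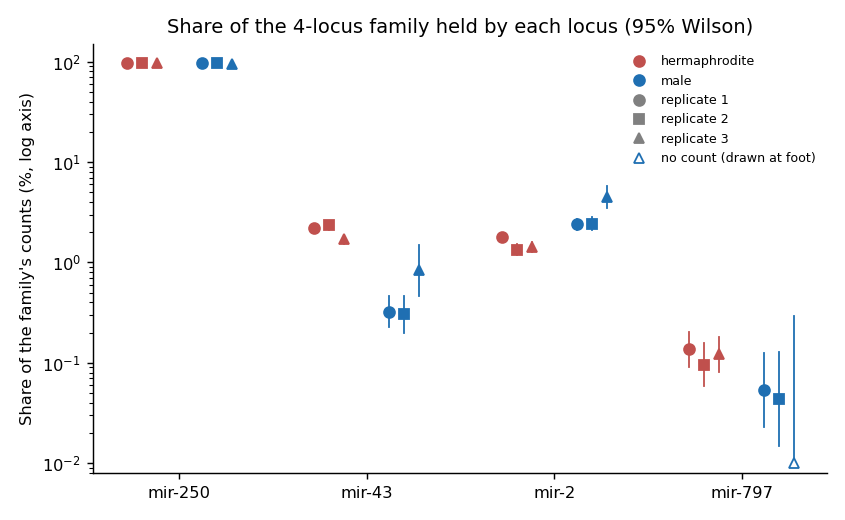
Share of the family's counts held by each locus in each library, in percent on a log axis, with 95% Wilson intervals as vertical lines. In both sexes mir-250 lies near the top of the axis, mir-43 is above mir-2 in the 3 hermaphrodite libraries and below it in the 3 male libraries, and male replicate 3 had no count for mir-797 (open triangle).

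The levels of each locus were then compared between the sexes with edgeR's quasi-likelihood test, fitted to all miRNAs. All 4 members passed the filter on low counts, among 124 of 253 miRNAs that did. At a Benjamini-Hochberg adjusted p of 0.05, 2 of the 4 members were called, both lower in male gonads, against a background of 25.0% of tested miRNAs called in that direction, 30.6% called as higher in males and 55.6% called in either. The median log2 fold change (male over hermaphrodite) was -0.89 over the 4 members and 0.15 over all tested miRNAs. In 3 of the 4 members the scaled CPM of the sexes did not overlap, which is near the background of 67.7%.

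The abundant mir-250 stood at 8784, 11462 and 9032 scaled CPM in hermaphrodite replicates 1 to 3 and at 10632, 9328 and 4151 scaled CPM in male replicates 1 to 3. Male replicates 1 and 2 lay within the hermaphrodite range, and male replicate 3 lay below it. By mean scaled CPM the gene ranked 19 of 253 miRNAs in hermaphrodite and 14 of 253 in male gonads. The fitted change was -0.28 on the log2 scale (SE 0.38), with an adjusted p of 0.587 from edgeR, so no difference larger than the spread between libraries was found. Its direction was reversed, to 0.78, when libraries were scaled by their totals.

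The largest difference in the family was in mir-43. Its raw counts were 372, 367 and 321 in the hermaphrodite libraries and 30, 21 and 11 in the male libraries, or 201, 280 and 158 scaled CPM against 35.2, 29.4 and 36.6. The male libraries lay close together and far below every hermaphrodite library. The mean was 6.32-fold higher in hermaphrodite gonads, at 213 ± 61.5 (SD, n = 3) against 33.7 ± 3.84 scaled CPM (SD, n = 3). In the fit mir-43 fell by 2.66 on the log2 scale in males (SE 0.54), with an adjusted p of 4.57e-06 from edgeR. It was called as lower in males in all 18 alternatives, with log2 fold changes from -3.13 to -1.62 and adjusted p-values from 2.32e-19 to 0.0026. In rank it stood at 51 of 253 in hermaphrodite and 92 of 253 in male gonads.

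For mir-2, raw counts were 300, 210 and 270 in the hermaphrodite and 224, 166 and 59 in the male libraries. In scaled CPM these were 162, 160.1 and 133 against 263, 232 and 196. Every male library lay above every hermaphrodite library, by a gap that was small beside that of mir-43. The fitted difference was 0.61 on the log2 scale (SE 0.46), at an adjusted p of 0.257 from edgeR, which did not pass the threshold. The call depended on the scaling between libraries, and mir-2 was called as higher in males with upper-quartile scaling and with library totals. The estimate was 0.09 with TMM computed without the mir-35 family, and between 0.13 and 0.42 with each library left out in turn, all below the value from the 6 libraries together. Of these 6 fits, the lowest was without hermaphrodite replicate 2.

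At the lowest level of the family, mir-797 had 23, 15 and 23 counts in the hermaphrodite and 5, 3 and 0 in the male libraries. This was 12.5, 11.4 and 11.4 scaled CPM in hermaphrodite replicates 1 to 3, and 5.87 and 4.20 in male replicates 1 and 2. By library totals, the count of 0 in male replicate 3 allows up to 12.2 CPM (3 counts of its total). This is above the hermaphrodite mean of 8.44 CPM (SD 1.89, n = 3). In scaled CPM, 3 counts in that library are 9.99, which is below each of the hermaphrodite values. Whether that library alone could show a decrease therefore depended on the scaling. The estimate for mir-797 was -1.51 on the log2 scale (SE 0.68), with an adjusted p of 0.0485 from edgeR. Of the 15 alternatives in which mir-797 was tested, 7 ended this call, within an adjusted p range of 0.0151 to 0.505. With 8 counts over all male libraries, a male level for this locus is poorly determined.

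**Figure D2:**
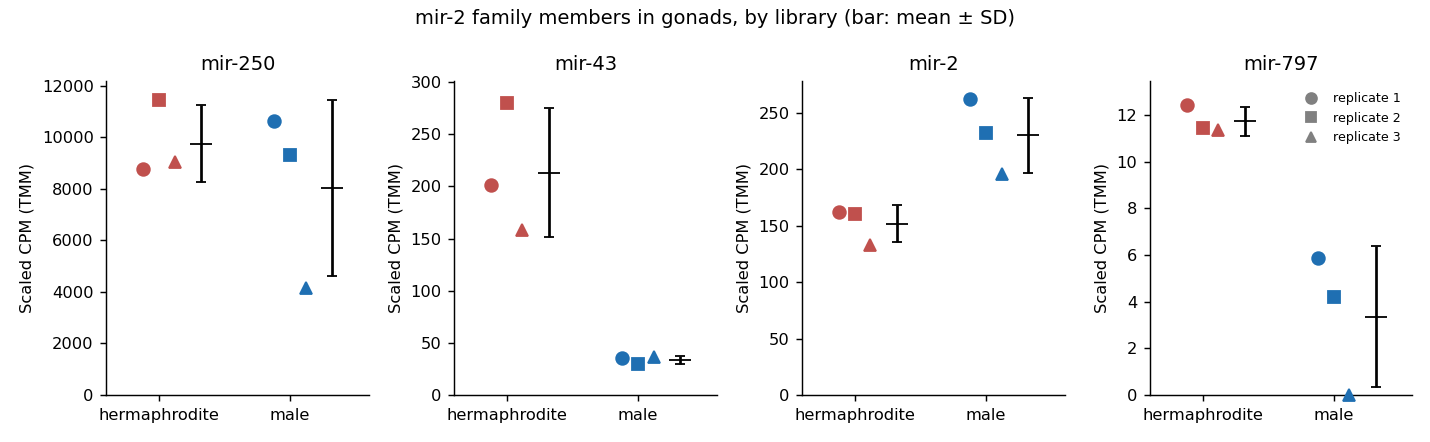
Scaled CPM of each member in the 6 libraries, with a separate linear axis from 0 for each gene and the mean ± SD of each sex in black. The sexes overlap for mir-250, where male replicate 3 is lowest at 4151, and stand furthest apart for mir-43, at 213 in hermaphrodite and 33.7 in male gonads on average.

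**Figure D3:**
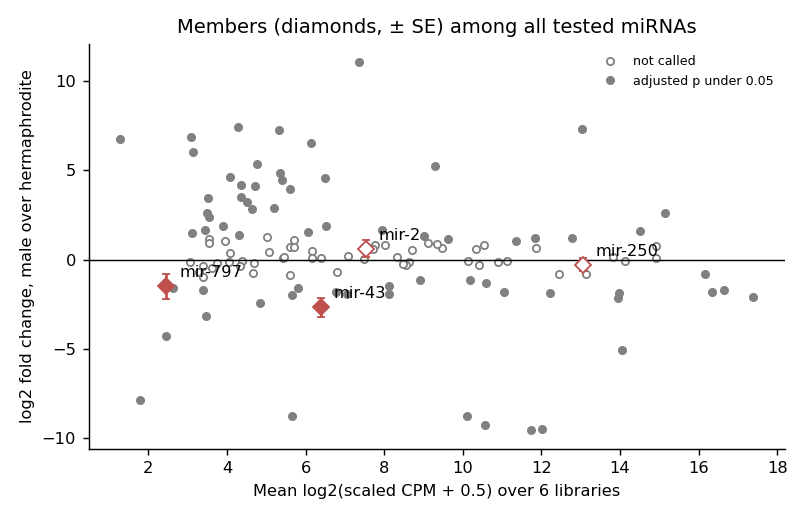
Log2 fold change (male over hermaphrodite) against mean log2(scaled CPM + 0.5) over the 6 libraries for the 124 tested miRNAs, with the 4 members as diamonds and their SE as bars. The called members mir-43 and mir-797 lie below 0 and the uncalled mir-2 and mir-250 near 0, within a much wider spread of all miRNAs.

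Fold changes of all 4 genes moved together with the scaling, because scaling shifts all miRNAs of a library alike. The median log2 fold change of all tested miRNAs was 0.15 with TMM, -0.20 with relative log expression (RLE), 0.37 with upper-quartile scaling, 1.18 with library totals and -0.35 with TMM computed without the mir-35 family. Relative to that median the members hardly moved, which follows from such a shift and is no test of the differences between the sexes. Under these 5 scalings mir-43 stayed between -2.81 and -2.78, mir-797 between -1.70 and -1.65, mir-250 between -0.45 and -0.40, and mir-2 between 0.43 and 0.47.

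**Figure D4:**
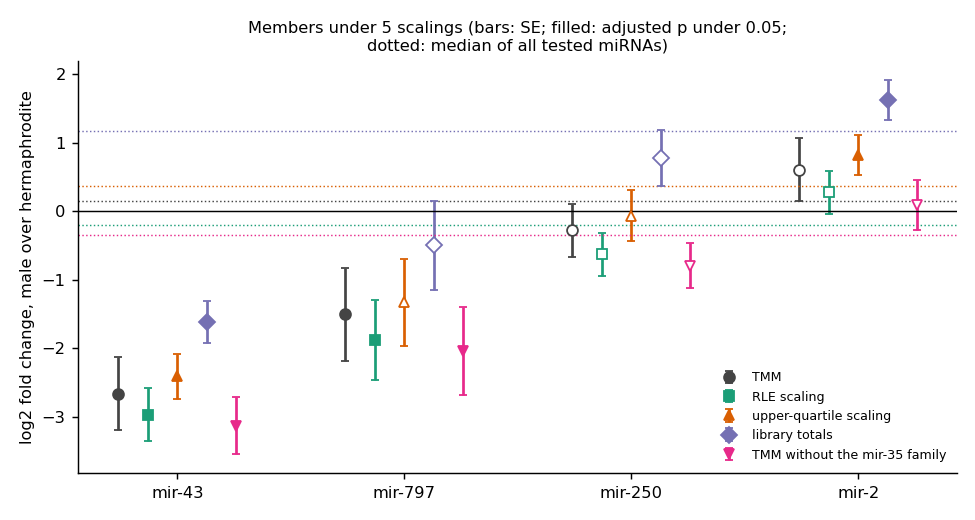
Log2 fold change of each member under 5 scalings between libraries, with SE bars, filled symbols for an adjusted p under 0.05 and dotted lines for the median of all 124 tested miRNAs under each scaling. The order of the members is the same under each scaling, mir-43 is called under all 5, and mir-250 is above 0 with library totals at 0.78.

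Ratios between members within a library do not depend on any scaling, and were compared for the 6 pairs of members as log2 ratios after adding 0.5 to each count. The sexes did not overlap in 5 of the 6 pairs, against a background of 70.3% of 7626 pairs of tested miRNAs. The 6 pairs are formed from the same 4 genes, so they are not separate results. The widest difference was between mir-2 and mir-43. Per mir-43 count, mir-2 stood at 80.6%, 57.2% and 84.1% in hermaphrodite replicates 1 to 3 and at 747%, 790.5% and 536% in male replicates 1 to 3. On the log2 scale the ratio was 3.19 higher in males (SE 0.25), a 9.12-fold difference. Against mir-250, the ratio of mir-43 was lower in males by a log2 difference of -2.21 (SE 0.52) and that of mir-2 was higher by 0.98 (SE 0.34), or 0.67 without male replicate 3. Each of the 5 pairs had an exact permutation p of 0.1, the smallest possible, and 0.12 after Benjamini-Hochberg adjustment over the 6 pairs. For mir-43 against mir-797 the sexes overlapped, with a difference of -0.90 (SE 0.70, exact permutation p 0.3). This value rested on male replicate 3, which had no mir-797 count, and on the pseudocount. It was -1.56 without that library, -1.27 with 1 added to each count (exact permutation p 0.1) and -0.10 with 0.1 added (exact permutation p 1.0).

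The members were also set against their genomic neighbours, the miRNA genes on the same strand that start within 10 kb. Of the 5 such pairs, 1 did not overlap between the sexes, and of the 3 in which both genes were tested, 1 did not. The background for the latter was 42.4% of the 33 pairs of adjacent miRNA genes in which both were tested. That pair was mir-250 and mir-61, the latter known from LIN-12 signalling in the vulva. Counts of mir-250 were 9.17%, 9.27% and 9.74% of those of mir-61 in hermaphrodite replicates 1 to 3 and 12.9%, 13.8% and 15.9% in male replicates 1 to 3. Both sexes kept a narrow range, and the male range lay above the other. The log2 ratio was 0.59 higher in males (SE 0.09), a 1.51-fold difference. The exact permutation p was 0.1, and 0.5 after Benjamini-Hochberg adjustment over the 5 pairs. In absolute size this difference was the median (0.59) of the 33 pairs of adjacent tested genes. In the fit mir-61 was itself lower in male gonads, by -0.83 on the log2 scale (SE 0.34), with an adjusted p of 0.0317 from edgeR. This call ended in 7 of 18 alternatives, library totals among them. Male replicate 3 was low in both genes, at 26125 scaled CPM for mir-61 against 82113 and 67720 in the other male libraries.

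For mir-2 and mir-71, a miRNA known for its role in lifespan, the ratio did not separate the sexes. Counts of mir-2 were 6.38%, 3.55% and 6.41% of those of mir-71 in the hermaphrodite and 5.64%, 4.92% and 3.99% in the male libraries, a log2 difference of -0.13 (SE 0.32, exact permutation p 0.7). Neither gene was called with TMM scaling (mir-71 was in 3 of 18 alternatives), with mir-71 at 0.65 on the log2 scale (SE 0.40) and an adjusted p of 0.156 from edgeR.

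**Figure D5:**
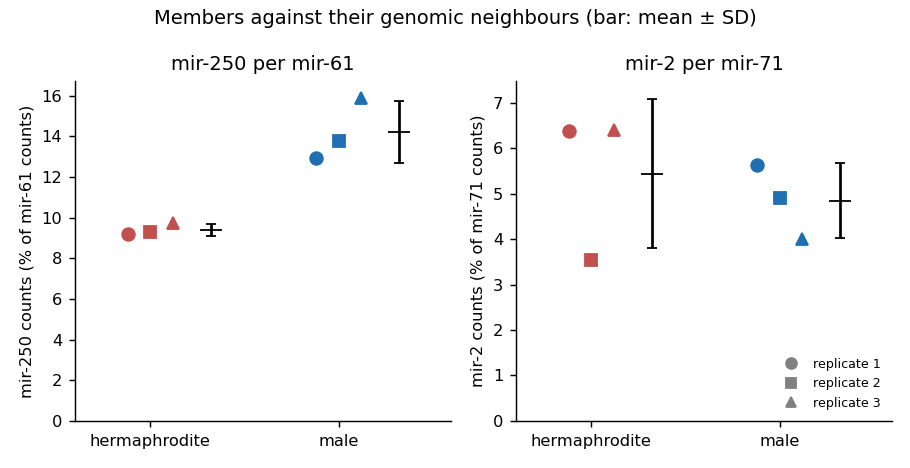
Counts of mir-250 as a percentage of those of its neighbour mir-61, and of mir-2 as a percentage of those of mir-71, in each library, with the mean ± SD of each sex in black. For mir-250 the male libraries (12.9% to 15.9%) lie above the hermaphrodite libraries (9.17% to 9.74%), and for mir-2 the sexes overlap.

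On chromosome II, mir-42 and mir-43 were both lower in male gonads. The counts of mir-42 were 84, 61 and 86 in the hermaphrodite and 7, 3 and 0 in the male libraries, and it fell by 3.13 on the log2 scale in males (SE 0.70), with an adjusted p of 3.9e-05 from edgeR. The sexes overlapped in the ratio of mir-43 to mir-42, with a log2 difference of 0.85 (SE 0.78, exact permutation p 0.4) that rested on the male library without a mir-42 count. Without male replicate 3 the difference was 0.12. The third gene of this locus, mir-44, had 7, 1 and 5 counts in the hermaphrodite and none in the male libraries, too few to compare. Beside mir-797, mir-247 had 6, 8 and 8 counts in the hermaphrodite and 10, 1 and 0 in the male libraries, and neither its level nor the ratio to mir-797 (log2 difference -1.30, SE 0.69, exact permutation p 0.2) can be read at this depth. In the mir-44 family (mir-44, mir-45, mir-61 and mir-247), the neighbour of mir-250 dominated as well. There mir-61 held at least 99.8% of counts in each hermaphrodite library and at least 99.2% in each male library. How reads matching several loci were treated is not given. Whether this lowered the counts of mir-44 or mir-45 was not tested.

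The family as a whole took 0.645%, 0.667% and 0.834% of all miRNA counts in hermaphrodite replicates 1 to 3 and 1.56%, 1.56% and 0.537% in male replicates 1 to 3. The 95% Wilson intervals were at most 0.0731 percentage points wide. Male replicates 1 and 2 lay above the hermaphrodite libraries and male replicate 3 below them. The means were 0.716% ± 0.103 (SD, n = 3) and 1.22% ± 0.590 (SD, n = 3), and the male mean was 1.56% without replicate 3. In scaled CPM the family summed to 10136 ± 1541 (SD, n = 3) for hermaphrodites and 8305 ± 3461 (SD, n = 3) for males. The male mean rested on replicate 3 and was 10265 scaled CPM without it, so the order of the sexes on this scale is not settled.

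As a description of which other miRNAs followed a similar course over the 6 libraries, profiles of log2 scaled CPM were centred and compared by their root mean square difference. Closest to mir-250 were mir-1817 at 0.15, mir-5551 at 0.23 and mir-4937 at 0.23, with its neighbour mir-61 at 0.31. Closest to mir-43 were mir-82 at 0.26, mir-64 at 0.27 and mir-786 at 0.28, all lower in male gonads. For mir-2 they were mir-45 at 0.15, mir-800 at 0.23 and mir-241 at 0.25, with its neighbour mir-71 at 0.32. The nearest profiles to that of mir-797 were mir-785 at 0.45, mir-58b at 0.55 and mir-8202 at 0.70, all less close than the nearest of the other members. In male replicate 3, mir-797, mir-58b and mir-8202 were at 0 scaled CPM. There mir-785 was at 9.99, against 171 and 161 in male replicates 1 and 2. The weight of that library in these distances was not tested. No member of the family was among the 3 closest to another.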

How the data were processed

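The groups and replicate numbers came from the sample titles. The authors deposited unnormalized read counts (whole numbers, 253 miRNA genes, 1 table per library). Bowtie2, HTSeq and DESeq2 are named without version in the submitters' processing notes. The build ce10 and miRBase release 22 appear in the deposited file names and in the column headers of the normalized table, and the treatment of reads matching several loci is not given in the sources used here. The authors also deposited normalized counts, used as a signal: each library's counts divided by 1 constant. Counts do not separate hairpin arms.

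Here edgeR 4.0.16 in R 4.3.3 was fitted to all counts that passed filterByExpr (minimum count 10; 124 of 253 miRNAs), with TMM scaling, robust dispersions and the quasi-likelihood F-test with sex as the only term (two-sided, Benjamini-Hochberg, 0.05). It was tested on simulated data. Each SE is the log2 fold change over the square root of F, and for ratios it comes from the 2 group variances. Shares and ratios used exact permutation (scipy 1.17.1, Python 3.11.15). Alternatives were other scalings (RLE, upper quartile, library totals, TMM without the mir-35 family), other filters, DESeq2 1.42.0, limma 3.58.1 (voom, and trend on the normalized counts with a pseudocount of 1 or 0.1), robust=FALSE, a replicate block and each library left out. The genes named are the members, their neighbours, the 3 most similar profiles per member and the marker lists. Members and lists were chosen with earlier results of these data known. Names and gene order come from Ensembl release 115 (WBcel235, 250 of 253 miRNAs matched). Its build differs from ce10, and its coordinates are therefore left out.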

Additional observations from a re-analysis of the deposited data

How the results depend on the processing

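Of the members, mir-43 kept its direction and call in all 18 alternatives, and mir-250 was not called in any. With library totals mir-250 was reversed, at 0.78 (adjusted p 0.127), mir-2 was called at 1.62 (adjusted p 0.00249), and mir-797 lost its call at -0.50 (adjusted p 0.505); this scaling also raised the number of miRNAs higher in males from 38 to 69 and lowered that in hermaphrodites from 31 to 20. With upper-quartile scaling mir-2 was called at 0.82 (adjusted p 0.0391) and mir-797 was lost at -1.33 (adjusted p 0.104). The call of mir-797 was also lost with no filter (-1.50), with limma-trend at a pseudocount of 0.1 (-3.43) and with robust=FALSE (-1.51). Without each library in turn mir-797 ranged from -2.20 to -1.53, its call being lost without male replicate 1 (adjusted p 0.0699); without any of the hermaphrodite libraries it did not pass the filter, so no value was given. The number of miRNAs higher in males then ranged from 23 to 43, with 24 and 23 without hermaphrodite replicates 2 and 3, and that in hermaphrodites from 26 to 44. The difference in the mir-250 share of the family ranged from -0.33 to 0.94 points and that in the ratio of mir-2 to mir-71 from -0.41 to 0.017, both across 0. The difference in mir-43 to mir-44 was -1.19 and reversed to 0.89 at a pseudocount of 0.1, since the male counts of mir-44 are 0. Leaving the mir-35 family out of the total moved the hermaphrodite share of the mir-2 family to 0.878%. The cause of these other shifts was not tested.

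Same-numbered libraries of the sexes did not deviate together (correlations over 124 miRNAs -0.12, -0.05 and -0.27 for numbers 1 to 3). Differently numbered libraries ranged from -0.17 to 0.35. Deviations were taken from a mean of only 3 libraries per sex, so this check cannot decide whether the numbers pair the libraries. With the replicate block mir-43 was at -2.64, mir-2 at 0.60, mir-250 at -0.38 and mir-797 at -1.62 (adjusted p 0.0707, call lost), with 31 miRNAs called higher in males and 27 in hermaphrodites. Depth limits what can be said of mir-797, mir-44, mir-247 and mir-124.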
